A study of Mus musculus with 4 samples.

Results

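The genes described here were matched by symbol. They are the matrix metalloproteinases (Mmp genes without Mmp13), their tissue inhibitors (Timp1 to Timp4) and the related Adam, Adamts and Adamts-like (Adamtsl) genes. They made up 60 of the 26252 genes and clusters in the deposited tag table. A count in at least 1 library was present for 57 of the 60, and 43 passed the filter on low counts and were tested among 13718 features. The members were 16 Mmp, 4 Timp, 19 Adamts, 5 Adamtsl and 16 Adam genes, and a further 23 genes of the GENCODE M21 annotation with such symbols had no row in the table and no unassigned count.

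The study profiled whole limbs, dissected from CD1 mouse embryos of stage E14.5. Forelimb and hindlimb were each represented by 2 biological replicates, and no genotype or treatment set them apart. DGE-SAGE counts a 17-base tag next to a CATG site of the enzyme NlaIII, ideally the last site before the poly(A) tail, so that 1 transcript gives 1 tag whatever its length. Totals ran from 1829647 counts in forelimb replicate 2 to 5325279 in hindlimb replicate 1, and 1 count was worth 0.621 CPM (counts scaled by library size, edgeR's unit) in the former and 0.224 to 0.256 CPM in the other libraries.

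Matrix metalloproteinases are secreted or membrane-bound zinc enzymes that cut collagens, gelatin and other matrix proteins, and TIMPs block their active site. ADAMTS enzymes cut proteoglycans such as aggrecan and versican, trim procollagens or act on cartilage and microfibril proteins, whereas ADAMTS-like proteins carry the ancillary domains without the protease. ADAMs sit in the cell membrane, where those with an active site shed ligands and receptors. In the growing limb these families take part in cartilage remodelling, joint and tendon formation, vessel ingrowth and the removal of tissue between the digits.

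The libraries matched their limb labels at the genes that separate the limbs. Counts of Pitx1, a hindlimb transcription factor, were 13 and 2 in forelimb against 1137 and 1201 in hindlimb. Tbx4, the hindlimb T-box factor, had 34 and 5 counts in forelimb against 193 and 227 in hindlimb, and its forelimb counterpart Tbx5 had 72 and 24 against 4 and 6. Libraries of 1 limb type correlated at r = 0.928 (forelimb) and 0.927 (hindlimb) over log2 CPM of 13718 features, and those of different types at 0.777 to 0.888. Several marker lists also differed in summed CPM between the limb types. Hypertrophic cartilage (4 of 4 genes in the table) stood at 534 and 646 CPM in forelimb against 192 and 144 in hindlimb, skeletal muscle (5 of 5) at 2676 and 2147 against 887 and 1030, and erythroid cells (3 of 4) at 11741 and 9335 against 4764 and 5602. Chondrocyte markers (5 of 5) stood at 2184 and 1900 against 2857 and 3971. Within that list Col2a1 stood at 1098 and 777 CPM in forelimb against 1864 and 3292.5 in hindlimb. Matn1 went the other way, at 251 and 365 against 137 and 120 CPM. Osteoclast and macrophage markers (7 of 7) stood at 157 and 113 against 108 and 98.6 CPM, and tendon (3 of 3) at 204 and 215 against 189 and 177. Endothelium (4 of 4) stood at 184 and 139 against 141 and 149.8, and epidermis (4 of 4) at 685 and 691 against 757 and 907. Genes of 1 list did not always agree. At an adjusted p below 0.05 (edgeR), the chondrocyte, tendon and endothelium lists each had 1 gene higher and 1 lower in hindlimb. Epidermis had 1 higher and 2 lower. Called genes of the hypertrophic cartilage (4), muscle (3), erythroid (1) and osteoclast and macrophage (1) lists were all lower. Beside these, 9.58% of all features were called hindlimb-high and 7.08% forelimb-high. Of the 4 neutrophil markers 1 was in the table, at 0 in both forelimb libraries and 1.34 and 0.761 CPM in hindlimb. The part of these tissues in the results below was not tested, and in whole limbs fewer cells of a type and less RNA per cell cannot be told apart. The marker sums and calls carry no correction for tag sequence. Over all features, ratios of hindlimb over forelimb rose with the percentage of G and C bases in the tag (Pearson 0.58), as described below.

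Summed over all families, the 2 limb types had similar levels. All members together reached 2537 and 2774 CPM in forelimb and 2387 and 2463 CPM in hindlimb. Mmp2, Mmp14 and Timp2 alone held 46.7% to 49.3% of the members' CPM in each library. The Mmp sum was 1045 and 1084 CPM in forelimb and 1079 and 1111 CPM in hindlimb, and the 2 ranges overlapped. The Timp sum was 492 and 495 CPM in forelimb and 337 and 270.3 CPM in hindlimb, without overlap. Summed Timp over summed Mmp thus read 0.471 and 0.456 in forelimb and 0.312 and 0.243 in hindlimb. The Adamts sum overlapped between limbs (616 and 711 against 624 and 806 CPM). The Adamtsl sum (42.5 and 58.4 against 32.0 and 22.1 CPM) and the Adam sum (342 and 426 against 315 and 255 CPM) were higher in both forelimb libraries. These sums and ratios are descriptions, were not tested and carry no correction for tag sequence. An AT-rich tag of Timp2, described below, gave 84.5 and 108 CPM in forelimb against 17.2 and 4.06 in hindlimb. A GC-rich tag of the same gene went the other way, at 9.73 and 8.08 against 25.7 and 18.0 CPM.

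**Figure D1:**
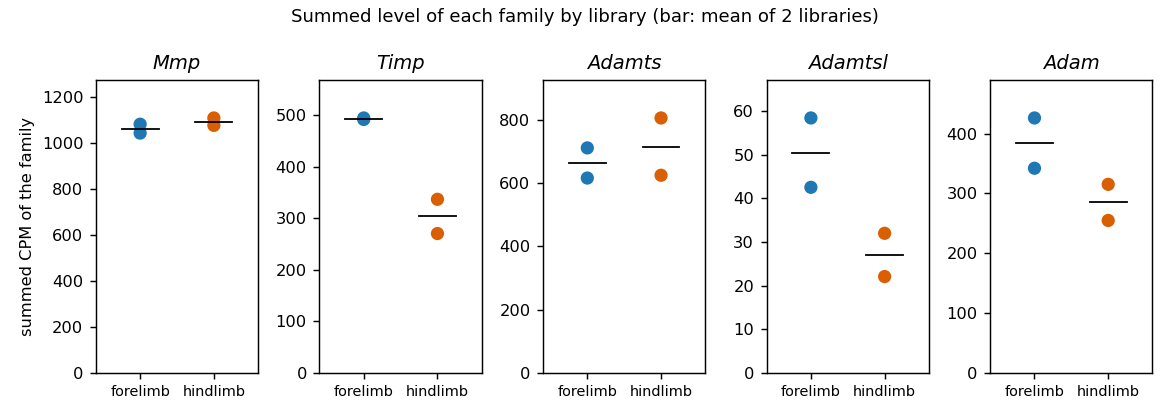
Summed CPM of the members of each family (linear vertical axis from 0, own scale per panel) in the 2 forelimb and 2 hindlimb libraries, with 1 point per library and a bar at the mean of 2 libraries. The Timp points sit at 492 and 495 CPM in forelimb and at 337 and 270.3 CPM in hindlimb, while the Mmp and Adamts points of the limb types overlap. The sums carry no correction for tag sequence.

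At an adjusted p below 0.05, 5 of the 43 tested members were higher in forelimb (11.6%), namely Adam9, Adam17, Adamts5, Adamts9 and Adamtsl1. No member was higher in hindlimb, and 38 did not pass. Over all 13718 features 16.7% passed, 9.58% as hindlimb-high and 7.08% as forelimb-high (edgeR quasi-likelihood test, Benjamini-Hochberg adjustment). Of the members, 14 had an unadjusted p below 0.05, against 4451 features (32.4%) in all; DESeq2 likewise called 0 members higher in hindlimb. The median log2 fold change, hindlimb over forelimb, was 0.02 over the tested members (SD 0.91) and -0.03 over all tested features (SD 1.16). In 16 members both forelimb libraries were above both hindlimb libraries (37.2%), and in 10 the reverse held (23.3%), against 31.4% of all tested features in each direction. The count of forelimb-high members was 3 without forelimb replicate 1 (Adam9, Adamts5, Adamts9), 2 without forelimb replicate 2 (Adam9, Adamts9) and 3 without hindlimb replicate 2 (Adam9, Adamts5, Adamts9). Without hindlimb replicate 1 it was 9, with 4 hindlimb-high members (Adamts1, Adamts7, Adamts10, Adamts15). The share called over all features moved alongside, to 27.0% without hindlimb replicate 1 and to 6.48% to 7.20% without each of the others. The replicates are biological per the labels, which do not say whether embryos were pooled, and the p-values measure the spread between these samples.

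The tags of the members showed a pattern with base composition, though not in each member. Among the 130 member tags with at least 20 counts, from 40 genes, the log2 ratio of hindlimb over forelimb CPM + 0.5 correlated with the percentage of G and C bases in the tag (Pearson 0.65, Spearman 0.64). The tags share libraries and genes, and over all features the same description gave 0.58 by both measures in 46583 tags. Of 41 member tags with less than 40% G and C, 32 had a ratio below 0 and their median was -1.21. Of 42 tags above 55%, 35 had a ratio above 0 and their median was 0.97. The pattern also appeared between tags of 1 gene, which can come from 1 transcript or from several. The comparison took members with 2 or more such tags that differed in the percentage of G and C. In 21 of these 25 members (84.0%) the GC-richest tag had a higher hindlimb ratio than the GC-poorest. The median difference was 1.36 on the log2 scale. Over all features, by the same rule, it was 7545 of 9486 genes (79.5%), by 1.43.

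**Figure D2:**
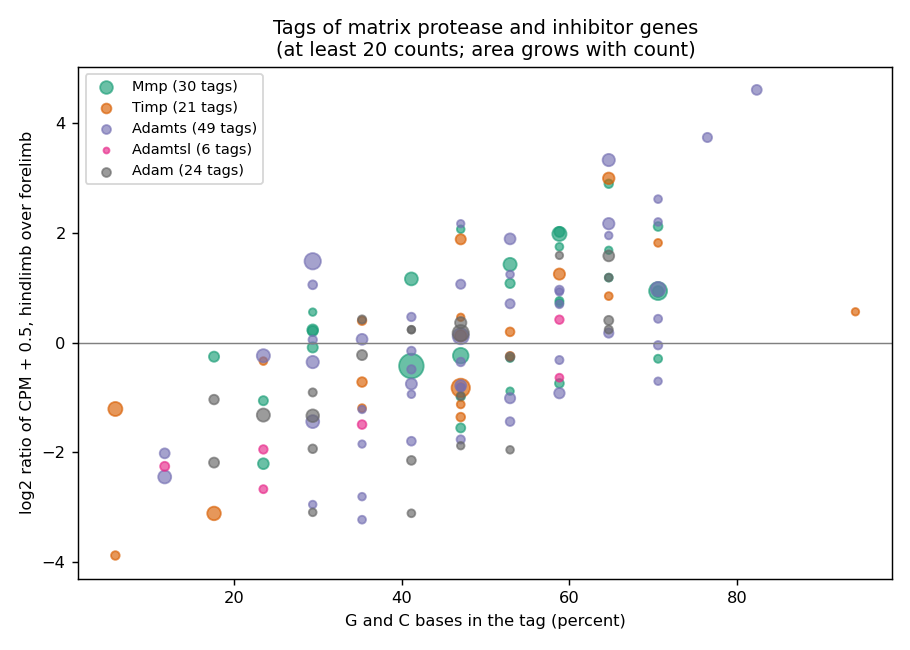
Each point is 1 tag of a member with at least 20 counts over the 4 libraries, with the percentage of G and C bases on the horizontal axis and the log2 ratio of hindlimb over forelimb CPM + 0.5 on the vertical axis. Colour gives the family and point size grows with the count. The points rise from lower left to upper right, with a median ratio of -1.21 below 40% G and C and 0.97 above 55%.

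Timp3, an inhibitor that binds the matrix and also blocks ADAM17 and the aggrecan-cutting ADAMTS enzymes, showed this within 1 3' UTR. Its tags are printed 5' to 3' with G and C in capitals, because their base makeup is what differs.
Timp3 tag at the last NlaIII site: ttatttatGaattttat
Timp3 tag upstream: CtCtGGGGaCaGGGGta
The AT-rich tag, with 1 G or C base (GRCm38, plus strand, chr10:86349393-86349409), had 298 and 119 counts in forelimb and 200 and 77 in hindlimb. The GC-rich tag, with 11 such bases (plus strand, chr10:86349228-86349244), had 16 and 4 counts in forelimb and 136 and 115 in hindlimb. The 2 tags of the same gene thus pointed to opposite limbs. Since ratios between the limbs moved with tag sequence, the differences below are also given from a fit with a tag-sequence offset. The offset is what tag sequence predicts for each gene's tags in each library. The model takes the base at each position, the opening dinucleotide, and terms for GC and purine content. It was learned from differences between tags of 1 gene (42831 tags in 9913 genes, within-gene R2 0.469 to 0.496). The offset was estimated on these same libraries, and part of the members' own tags entered it.

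With the offset, 0 members were called in either direction, beside 18 of the 13718 features (0.131%, of which 0.0802% hindlimb-high and 0.051% forelimb-high), and 7 members had an unadjusted p below 0.05, against 1347 features (9.82%). The spread (SD) of the members' log2 fold changes narrowed from 0.91 to 0.67 and their median moved to -0.18, beside -0.02 for all tested features. The sign turned in 16 of the 43 tested members. Pitx1, Tbx4 and Tbx5 passed in both fits, with log2 fold changes of 6.72, 2.95 and -3.77 without the offset (adjusted p 3.5e-07, 0.00101 and 0.00246) and 3.50, 2.88 and -4.04 with it (adjusted p 0.00208, 0.0222 and 0.0223, edgeR).

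**Figure D3:**
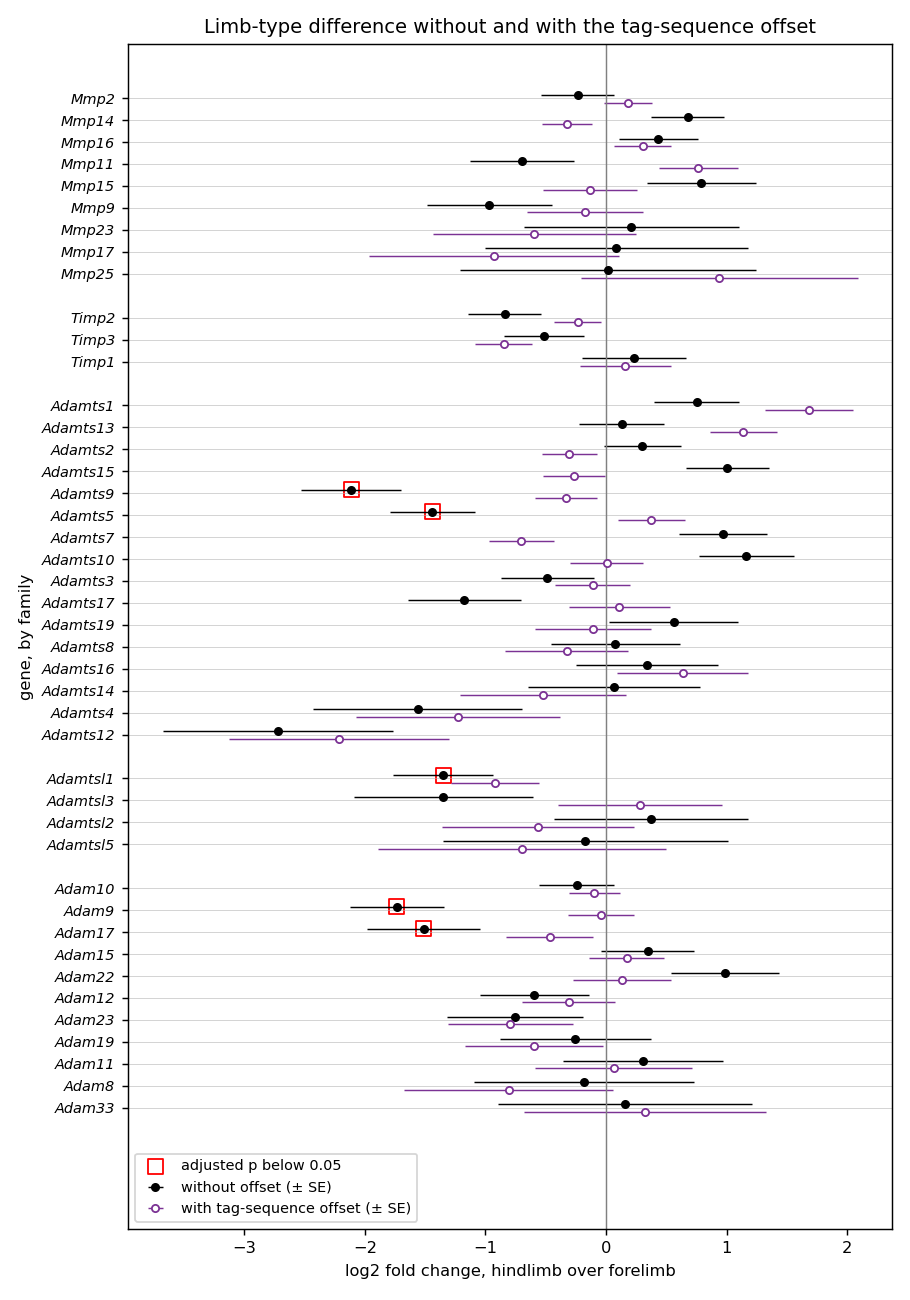
Log2 fold change, hindlimb over forelimb, of each of the 43 tested members (1 gene per line, by family), without the offset (black, ± SE) and with the tag-sequence offset (open purple, ± SE). Red squares mark the 5 members with an adjusted p below 0.05, all left of 0. With the offset the points of Adam9, Adamts9 and Adamts5 lie at -0.04, -0.33 and 0.38.

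The gelatinase Mmp2 (GRCm38, chr8:92827291-92853420, plus strand), which cuts denatured collagen and basement membrane collagen, was the most abundant member. Its level was 698 and 724 CPM in forelimb and 611 and 597 CPM in hindlimb. Both hindlimb libraries were lower, but the difference was small against its error (log2 fold change -0.24 ± 0.30 (SE), adjusted p = 0.637, edgeR), and it was 0.18 with the offset (adjusted p = 0.808). Its tags are shown because the chief tag is of middling composition and a minor GC-rich one moved the other way.
Mmp2 tag at the last site: GGaaatGGCaaaCaaGt
Mmp2 tag upstream: CCCaGtCaCttCCtCCa
The first, in the 3' UTR (plus strand, chr8:92853377-92853393, 7 of 17 bases G or C), carried 2587 and 1087 counts in forelimb and 2187 and 1991 in hindlimb. The second (plus strand, chr8:92853288-92853304, 10 of 17) carried 61 and 33 counts in forelimb and 376 and 243 in hindlimb. The gene's level therefore followed its chief tag.

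Mmp14 (chr14:54431612-54445364, plus strand), the membrane-type enzyme that activates pro-MMP2 at the cell surface, stood at 200.0 and 224 CPM in forelimb and 312 and 364 CPM in hindlimb. The limb types did not overlap, yet the difference did not pass (0.68 ± 0.31, adjusted p = 0.134, edgeR) and its sign turned with the offset (-0.32, adjusted p = 0.660). A pair of its tags, both at the last site of an annotated transcript, differ in composition.
Mmp14 tag in a coding exon: GGaCGCCCaaGCGaCtG
Mmp14 tag across an exon junction: GGCaGtGatGaaGtCtt
The GC-rich tag (chr14:54440620-54440636, 12 of 17 bases) had 388 and 148 counts in forelimb and 692 and 841 in hindlimb, while the second (between chr14:54440008-54440344, 8 of 17 bases) had 305 and 164 against 352 and 290.

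Mmp16, another membrane-type MMP, stood at 70.2 and 57.8 CPM in forelimb and 76.9 and 96.9 CPM in hindlimb, higher in both hindlimb libraries by 0.43 ± 0.33 (adjusted p = 0.387, edgeR; 0.30 with the offset). Mmp11, or stromelysin-3, known from stroma next to epithelium, stood at 38.7 and 39.8 CPM against 34.7 and 13.4 CPM. The 2 hindlimb libraries differed more from each other than hindlimb replicate 1 did from forelimb, and the value (-0.70 ± 0.43, adjusted p = 0.277, edgeR) turned to 0.77 with the offset. Over the membrane-type group, 5 of 6 were tested and none passed, with a median of 0.43 (-0.13 with the offset). Mmp9, the second gelatinase and a product of osteoclasts and other marrow cells, stood at 16.9 and 16.2 CPM in forelimb and 5.81 and 11.2 CPM in hindlimb (-0.97 ± 0.52, adjusted p = 0.206; -0.18 with the offset). Of the 5 tested osteoclast and macrophage markers 1 was called lower in hindlimb and none higher. Over all features 7.08% were called forelimb-high and 9.58% hindlimb-high. The marker count is without the offset, and the part of these markers in the Mmp9 value was not tested. Mmp8 and Mmp12, enzymes of neutrophils and macrophages, had no count in any library, which allows up to 3 counts in each. Mmp7, Mmp24 and Mmp27 had 1 or 2 counts in total, and the depth could not show a difference for them.

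**Figure D4:**
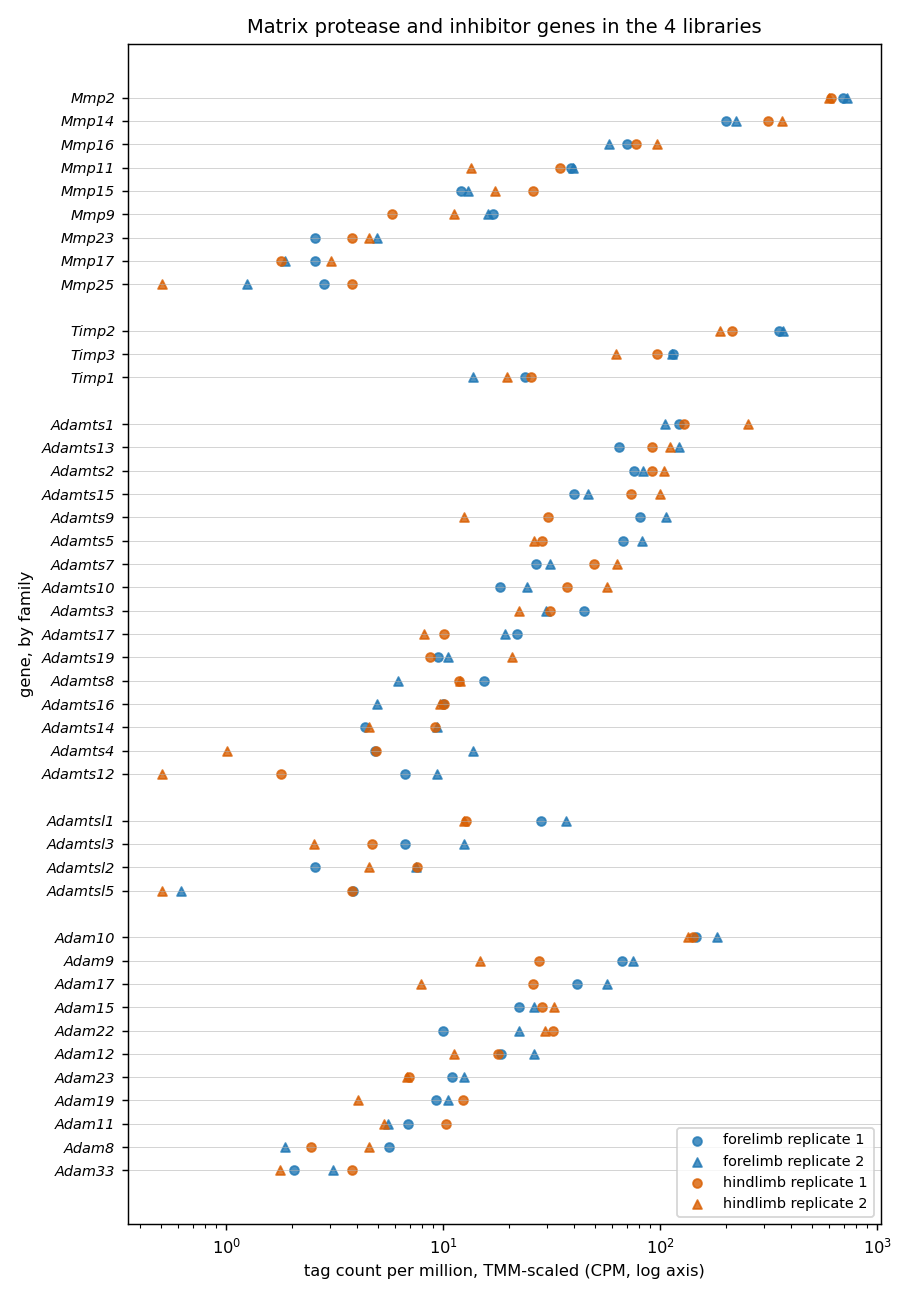
CPM (log axis) of the 43 tested members in each of the 4 libraries, 1 gene per line by family, with forelimb in blue and hindlimb in orange, circles for replicate 1 and triangles for replicate 2. Mmp2 lies furthest right at 597 to 724 CPM, and Adamts9, Adamts5 and Adam9 show both hindlimb points left of both forelimb points.

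The inhibitors were led by Timp2 (chr11:118301069-118355740, minus strand), which inhibits MMPs and also bridges pro-MMP2 to MMP14. It stood at 353 and 367 CPM in forelimb and 214 and 188 CPM in hindlimb. The limb types were well apart, and the difference lay just short of the threshold (-0.84 ± 0.30, adjusted p = 0.0640, edgeR), passing with DESeq2 (-0.86, adjusted p = 0.0125) and when hindlimb replicate 1 was left out (-0.95, adjusted p = 0.0375). With the offset it was -0.24 (adjusted p = 0.740). Its 4 most abundant tags are shown because they differed in direction between the limbs.
Timp2 tag at the last site: tGCGtGCtGGaatatGa
Timp2 AT-rich tag: aataaaaCatCaatCat
Timp2 GC-rich tag: CtGGGGtttCtaGCCaC
Timp2 tag with the GC content of the first: CCaGCaaCtCGCaatat
The chief tag (minus strand, chr11:118301217-118301233, 8 of 17 bases G or C) had 910 and 343 counts in forelimb and 561 and 495 in hindlimb. The AT-rich tag (chr11:118303593-118303609, 3 of 17) had 330 and 174 counts in forelimb but 77 and 16 in hindlimb. The GC-rich tag (chr11:118301583-118301599, 10 of 17) had 38 and 13 against 115 and 71, the opposite order. The last tag (chr11:118301384-118301400) has 8 G or C bases like the chief tag, yet had 10 and 8 counts in forelimb and 57 and 70 in hindlimb, so that GC content alone did not order these tags.

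Timp3 (chr10:86300372-86349506, plus strand) as a whole gene stood at 115 and 113 CPM in forelimb and 96.8 and 62.6 CPM in hindlimb (-0.51 ± 0.33, adjusted p = 0.298, edgeR). It kept this sign with the tag-sequence offset (-0.85, adjusted p = 0.229), turned to 0.36 with an offset on GC content alone, and passed when only tags at the last site were counted (-1.32, adjusted p = 0.0432). Timp1, the inducible secreted inhibitor, overlapped between limbs at 23.8 and 13.7 CPM against 25.3 and 19.8 CPM (0.23, adjusted p = 0.750; 0.16 with the offset). Timp4 had 0 and 1 counts in forelimb and 3 and 0 in hindlimb and was not tested. None of the 3 tested inhibitors passed.

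Among the 7 proteoglycanases (Adamts1, Adamts4, Adamts5, Adamts8, Adamts9, Adamts15 and Adamts20), 6 were tested, 2 were higher in forelimb and none in hindlimb, where 7.08% of all features were called forelimb-high. Their summed CPM overlapped between limbs, at 333 and 359.8 in forelimb and 279.9 and 405 in hindlimb, since the abundant members went in different directions. Adamts9 (chr6:92772699-92943492, minus strand), a versican-cutting enzyme, stood at 80.9 and 106 CPM in forelimb and 30.4 and 12.4 CPM in hindlimb. All forelimb values were above the hindlimb ones, and it had the smallest p of the members (-2.11 ± 0.41, adjusted p = 0.00329, edgeR). The call held without any 1 library (adjusted p 3.9e-08 to 0.0199) and with the GC offset (-1.13, adjusted p = 0.0347), but not with the tag-sequence offset (-0.33 ± 0.26, adjusted p = 0.719). Its chief tag lies at the last site and has 2 G or C bases.
Adamts9 tag at the last site: tGaaaCatattataaat
Adamts9 GC-rich tag: atCCtCCCCCttGCaGt
The AT-rich tag (minus strand, chr6:92772726-92772742) had 219 and 148 counts in forelimb and 90 and 24 in hindlimb. The GC-rich tag, with 10 such bases, had 10 and 7 counts in forelimb and 8 and 14 in hindlimb.

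Adamts5 (chr16:85856173-85901828, minus strand), the chief aggrecanase of mouse cartilage, stood at 67.3 and 82.0 CPM in forelimb and 28.6 and 26.1 CPM in hindlimb. The replicates were close and the limb types far apart (-1.44 ± 0.35, adjusted p = 0.0110, edgeR), and the call ended when forelimb replicate 2 was left out (-1.31, adjusted p = 0.0988). The offset turned the sign to 0.38 ± 0.28 (adjusted p = 0.700). Most of its counts came from 1 tag in the 3' UTR, with 5 G or C bases (minus strand, chr16:85859733-85859749), that had 181 and 111 counts in forelimb and 104 and 73 in hindlimb.
Adamts5 chief tag: tGaatttCtGtGatGaa

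Adamts1 (chr16:85793827-85803113, minus strand), which lies 53059 bp from Adamts5 on the same strand and cuts versican and aggrecan, went the other way. It stood at 122 and 105.0 CPM in forelimb and 129 and 254 CPM in hindlimb, where hindlimb replicate 2 stood apart from the other 3 libraries. The difference did not pass (0.75 ± 0.35, adjusted p = 0.145, edgeR), and without hindlimb replicate 2 it was 0.20 (adjusted p = 0.826). With the offset the estimate was larger, 1.68 ± 0.37 (adjusted p = 0.119), and it too rested on hindlimb replicate 2: leaving it out gave 0.67 (adjusted p = 0.9999), and leaving out the other hindlimb library gave 2.33 (adjusted p = 1.03e-10, edgeR). The gene passed with the GC offset (1.59, adjusted p = 0.0208) and at the last site alone (1.33, adjusted p = 0.0494). Both leading tags are AT-rich, yet only the first was higher in hindlimb replicate 2.
Adamts1 tag at the last site: taaatGataaaCtGtGG
Adamts1 tag upstream: taCtttataaGtattGG
The first (minus strand, chr16:85793862-85793878, 5 of 17 bases G or C) had 195 and 75 counts in forelimb and 272 and 832 in hindlimb. The second (minus strand, chr16:85794363-85794379, 4 of 17) had 183 and 50 in forelimb and 175 and 105 in hindlimb.

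Adamts15 stood at 39.9 and 46.6 CPM in forelimb and 73.3 and 99.9 CPM in hindlimb, without overlap, and fell just short of the threshold (1.01 ± 0.34, adjusted p = 0.0522, edgeR). Its tags held 67.7% G and C by count, and its value with the offset was -0.26 (adjusted p = 0.792). Adamts4 and Adamts8, at 1.01 to 15.4 CPM, overlapped between the limb types, and Adamts20, with 13 and 0 counts in forelimb and 8 and 2 in hindlimb, was not tested.

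None of the procollagen N-proteinases Adamts2, Adamts3 and Adamts14, which trim fibrillar procollagens, passed. Adamts2 stood at 75.5 and 83.3 CPM in forelimb and 91.4 and 104 CPM in hindlimb (0.30 ± 0.32, adjusted p = 0.551, edgeR; -0.30 with the offset). The COMP-cleaving enzyme Adamts7 stood at 26.9 and 31.1 CPM against 49.6 and 63.4 CPM (0.97 ± 0.36, adjusted p = 0.0730; -0.70 with the offset). Its pair of chief tags disagreed.
Adamts7 tag, 11 G or C bases: tCCCCCaCtCaGtCGtG
Adamts7 tag, 10 G or C bases: tGCCaCtGaGGaCtGtG
The first (plus strand, chr9:90199814-90199830) had 26 and 1 counts in forelimb and 129 and 211 in hindlimb. The second (plus strand, chr9:90197128-90197144) had 61 and 30 in forelimb against 48 and 27 in hindlimb, so that nearly equal GC content did not bring equal ratios here. Both lie in coding exons at the last site of an annotated transcript.

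Adamts13, which cuts von Willebrand factor, stood at 64.8 and 122 CPM in forelimb and 91.9 and 110.3 CPM in hindlimb, with overlap (0.13 ± 0.35, adjusted p = 0.831; 1.14 with the offset, adjusted p = 0.165). All of its counts came from 1 tag that matches 4 M21 genes (Adamts13, Cpne8, Gm29562 and Gm48161), so the level cannot be assigned to Adamts13. Adamts10, a microfibril-associated member, stood at 18.2 and 24.2 CPM against 37.3 and 56.5 CPM (1.16 ± 0.39, adjusted p = 0.0507), and read 0.01 with the offset. Its relative Adamts17 was higher in forelimb, at 21.8 and 19.3 CPM against 10.1 and 8.11 CPM (-1.18 ± 0.47, adjusted p = 0.0895), and read 0.11 with the offset. Their tags lie at opposite ends of the scale, with 61.4% G and C for Adamts10 and 25.7% for Adamts17.

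Adamtsl1 (chr4:85514172-86428385, plus strand), or punctin, was the most abundant of the 5 ADAMTS-like genes and the 1 that passed among 4 tested. Of all features 7.08% were called forelimb-high. It stood at 28.2 and 36.7 CPM in forelimb and 12.7 and 12.4 CPM in hindlimb, with no overlap (-1.35 ± 0.41, adjusted p = 0.0334, edgeR). DESeq2 did not call it (adjusted p = 0.0555), and it lost the call with the offset (-0.92 ± 0.37, adjusted p = 0.419). Leaving out 1 library ended the call for forelimb replicate 1 (-1.54, adjusted p = 0.0669), forelimb replicate 2 (-1.17, adjusted p = 0.163) and hindlimb replicate 2 (-1.32, adjusted p = 0.0997, edgeR). Its chief tag is shown as a further AT-rich one.
Adamtsl1 tag at the last site: aatGtaCatttaatatt
This tag (plus strand, chr4:86428232-86428248, 2 of 17 bases G or C) had 36 and 23 counts in forelimb and 15 and 3 in hindlimb. Adamtsl3 was lower at 6.66 and 12.4 CPM against 4.69 and 2.54 CPM (-1.35 ± 0.74, adjusted p = 0.218; 0.28 with the offset). Adamtsl2 (0.37, adjusted p = 0.791; -0.56 with the offset) and Adamtsl5 (-0.17, adjusted p = 0.941; -0.70 with the offset) overlapped between the limb types.

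Of the 8 ADAMs classed here as having an active site all were tested and 2 were higher in forelimb, beside 7.08% of all features. The ADAMs of the reproductive tract were classed apart, whether or not they have such a site. Adam10 (chr9:70678997-70780229, plus strand), which sheds Notch ligands and cleaves Notch receptors, was the most abundant at 145 and 182 CPM in forelimb and 142 and 135 CPM in hindlimb. The difference was within its error (-0.24 ± 0.31, adjusted p = 0.635, edgeR; -0.10 with the offset). A pair of its 3' UTR tags again ran in opposite directions.
Adam10 tag at the last site: CaCtGaaCtGtttCCaC
Adam10 tag upstream: taCattttttGCttGta
The first (plus strand, chr9:70779998-70780014, 8 of 17 bases G or C) had 357 and 146 counts in forelimb and 451 and 412 in hindlimb. The second (plus strand, chr9:70779908-70779924, 4 of 17) had 182 and 120 against 123 and 80.

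Adam9 (chr8:24949611-25016927, minus strand), a membrane sheddase, stood at 66.8 and 74.6 CPM in forelimb and 27.5 and 14.7 CPM in hindlimb. No hindlimb library came near the forelimb level (-1.74 ± 0.39, adjusted p = 0.00681, edgeR), and the call held without any 1 library (adjusted p 2.5e-05 to 0.0382). With the tag-sequence offset the estimate was -0.04 ± 0.27 (adjusted p = 0.974). Adam17 (chr12:21323509-21373632, minus strand), the TNF and EGFR-ligand sheddase that TIMP3 inhibits, stood at 41.2 and 56.5 CPM in forelimb and 25.9 and 7.86 CPM in hindlimb (-1.51 ± 0.47, adjusted p = 0.0360, edgeR). The 2 hindlimb libraries lay far apart. It no longer passed in edgeR once forelimb replicate 1 (-1.72, adjusted p = 0.0510), forelimb replicate 2 (-1.28, adjusted p = 0.141) or hindlimb replicate 2 (-0.88, adjusted p = 0.239) was dropped. The offset gave -0.47 ± 0.36 (adjusted p = 0.717). The chief tags of both genes lie at the last site.
Adam9 tag: aGCaCtttaaCtCtaaa
Adam17 tag: ataGtCttGtattttaa
The Adam9 tag (minus strand, chr8:24949993-24950009, 5 of 17 bases G or C) had 195 and 70 counts in forelimb and 97 and 58 in hindlimb. The Adam17 tag (minus strand, chr12:21323923-21323939, 3 of 17) had 54 and 44 against 30 and 6. Every deposited tag of either gene with at least 20 counts had a lower mean CPM in hindlimb. These tags held 3 to 8 G or C bases. An Adam9 tag with 7 G or C bases had 23 and 6 counts in forelimb against 1 and 0 in hindlimb. An Adam17 tag with 7 such bases, without a match in M21, had 21 and 26 against 8 and 9. Deposited Adam17 tags with fewer counts went both ways. A tag with 9 G or C bases had 2 and 0 counts in forelimb against 11 and 1 in hindlimb. Another with 10 had 2 and 0 against 6 and 3, and another with 3 had 3 and 0 against 8 and 0. With 8 such bases a tag had 5 and 2 against 4 and 3, a lower mean CPM in hindlimb.

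Adam15 stood at 22.3 and 26.1 CPM in forelimb and 28.6 and 32.5 CPM in hindlimb (0.34 ± 0.38, adjusted p = 0.574; 0.17 with the offset). None of the 3 ADAMs classed as lacking an active site passed. Adam22, a cell-surface adhesion protein, was highest of them, at 9.99 and 22.4 CPM in forelimb and 32.2 and 29.4 CPM in hindlimb (0.99 ± 0.45, adjusted p = 0.133; 0.13 with the offset). The 5 ADAMs known from the testis and epididymis (Adam1a, Adam4, Adam5, Adam7 and Adam21) summed to between 2.03 and 5.81 CPM per library. None was tested, and Adam7 had no count.

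The 5 called members had tags that held 21.1% to 33.4% G and C by count, with a median of 31.2%, beside a median of 45.9% for the 38 tested members that were not called. The 4 members with a log2 fold change above 0.9 (Adam22, Adamts7, Adamts10 and Adamts15) held 61.1% to 67.7%. The called group was cut by adjusted p and this last group by the estimate. Next below the latter cut lay Mmp15 (0.79, 43.3%), Adamts1 (0.75, 31.3%) and Mmp14 (0.68, 61.2%). Among members not called, forelimb-high estimates included Adamts12 (-2.72, 43.6%), Adamts4 (-1.56, 43.5%), Adamtsl3 (-1.35, 38.0%), Adamts17 (-1.18, 25.7%) and Mmp9 (-0.97, 51.8%).

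Genes that work with these families were read from the same fit. In a list of other extracellular proteolysis genes, 33 of 40 were tested, 4 were higher in hindlimb, 2 in forelimb and 27 did not pass, with a median log2 fold change of -0.19. Over all features, 9.58% were called hindlimb-high and 7.08% forelimb-high. Those higher in hindlimb were Ctsd, a lysosomal protease (2.48), Bmp1, the procollagen C-proteinase (2.44), Plat, a plasminogen activator (2.07), and Fbln1, an ADAMTS1 cofactor (1.29). Ctsl, another lysosomal protease (-1.21), and Reck, a membrane-anchored inhibitor of MMPs (-1.16), were higher in forelimb. Reck stood at 230.2 and 199 CPM in forelimb against 110.2 and 81.4 CPM in hindlimb. In a list of substrates, 28 of 32 were tested, 3 were higher in hindlimb (Hspg2 1.87, Col2a1 1.46, Col4a2 1.13), 5 in forelimb (among them Dcn -1.74, Matn1 -1.26 and Col3a1 -1.16) and 20 did not pass, with a median of -0.03, beside the same shares over all features. Acan, the main target of the aggrecanases, stood at 59.2 and 65.2 CPM in forelimb and 78.2 and 53.5 CPM in hindlimb and was not called (0.09, adjusted p = 0.890, edgeR). With the tag-sequence offset 0 genes of either list were called, and the sign turned for Ctsd (-0.10), Bmp1 (-0.09), Fbln1 (-0.03), Reck (0.26), Hspg2 (-0.34), Col4a2 (-0.10) and Col3a1 (0.46). It was kept by Plat (0.68), Ctsl (-0.20), Col2a1 (0.22), Dcn (-0.28) and Matn1 (-0.22). For Acan the offset gave -0.72.

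Some members had more counts outside their deposited rows than inside. The deposited table gave no gene to 261 tags, with 2156 counts, that match the transcripts of 1 member alone in M21, from 44 members. Adamts12, a COMP-cleaving enzyme of cartilage, is the clearest case. Its deposited tags gave 6.66 and 9.32 CPM in forelimb and 1.79 and 0.507 CPM in hindlimb, the most negative estimate of any member (-2.72 ± 0.96, adjusted p = 0.0573, edgeR; -2.21 with the offset). The tag at the last site of its transcript had no gene in the table.
Adamts12 tag without a deposited gene: tttCtGCaCtGCtGCtt
This tag (GRCm38, plus strand, chr15:11349107-11349123, 3' UTR) had 32 and 10 counts in forelimb and 65 and 54 in hindlimb. With all such tags added, the gene's log2 fold change was 0.06 (adjusted p = 0.934, edgeR).

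**Figure D5:**
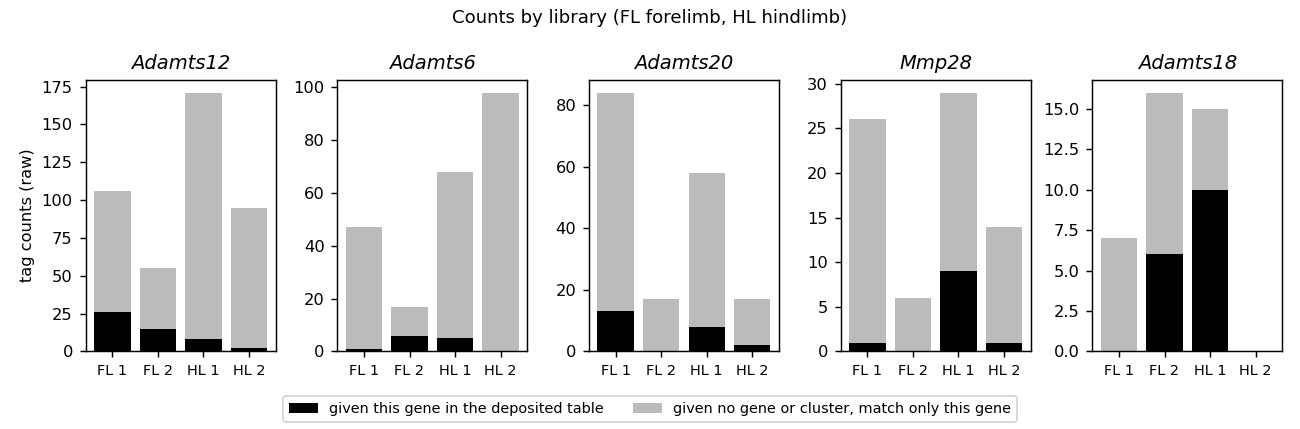
Raw tag counts in the 4 libraries (FL forelimb, HL hindlimb, replicates 1 and 2) for the 5 members with more counts outside their deposited rows than in them, with deposited counts in black and counts of tags that were given no gene or cluster but match this gene alone in grey. For Adamts12 the black parts sum to 51 counts and the grey parts to 376.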

How the data were processed

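Total RNA of dissected limbs went through DGE-SAGE tag profiling with NlaIII, per the labels' protocols. The authors deposited 1 table of raw tag counts, and used Bowtie and the build mm9 per the submitters' processing notes; their versions were not given in the sources used here. Tag counts were added up by Ensembl gene, with the UniGene cluster standing in for tags that lacked one. Tags with neither held 14.8% to 18.7% of a library's counts and stayed out of sizes and tests. Symbols and positions are from GENCODE M21 (GRCm38).

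The limb types were compared in R 4.3.3 with edgeR 4.0.16 (glmQLFit, glmQLFTest, TMM, filterByExpr with a minimum count of 10, Benjamini-Hochberg at 0.05, 2 residual degrees of freedom), with no block for the replicate number. Each SE is the log2 fold change divided by the square root of the F statistic. The members and lists were chosen with earlier results of these data known. Named were members called without or with the offset, the 4 most abundant of each family, up to 6 called genes of each further list, and Pitx1, Tbx4 and Tbx5. All other genes, and the tags of Timp3, Mmp14, Adamts7 and Adamts12, were named after their values were seen. Alternatives included DESeq2 1.42.0, other scalings, filters, tag choices and leaving out each library. The fits were also run on simulated data. There the tag bias had the form that the offset model fits, so bias of another form was not tested. Tags carry no molecular identifiers, so precision from depth covers counting error only. A planned search of protein sequences was not run.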

Additional observations from a re-analysis of the deposited data

Results flagged for a closer look

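In 5 members more counts lay in tags that the deposited table gave to no gene or cluster than in the tags it gave to them, where each such tag matches the transcripts of this gene alone. Adamts12 had 376 counts in such tags (80 and 40 in forelimb, 163 and 93 in hindlimb), against 51 deposited. Adamts6 had 218 (46 and 11, 63 and 98) against 12, and Adamts20, a versican-cutting enzyme, had 153 (71 and 17, 50 and 15) against 23. Mmp28 had 64 (25 and 6, 20 and 13) against 11, and Adamts18 had 22 (7 and 10, 5 and 0) against 16. With these tags added, the log2 fold changes were 0.83 for Adamts6 (adjusted p = 0.229), -0.90 for Adamts20 (0.283), -0.07 for Mmp28 (0.962) and -1.64 for Adamts18 (0.370, edgeR), and none of the 5 passed.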

How the results depend on the processing

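Depth limits the low members: 17 of the 60 were not tested. Over all genes the counts higher in hindlimb and in forelimb were 1314 and 971, and 0 and 5 for the members. Leaving out 1 library gave 583 to 1899 and 367 to 2001 over all genes, and 0 to 4 and 2 to 9 for the members. It gave 3 to 6 and 0 to 4 in the proteolysis list, and 1 to 5 and 2 to 6 among substrates.

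The replicate numbers were not found to pair the libraries (same-number deviations r = -0.105 over 13718 features, 2 pairs). The replicate block gave 1181 and 970 genes and the same 5 members. A block with the numbers crossed gave 1684 and 1486 genes, 3 and 6 members, 4 and 4 proteolysis genes and 5 and 6 substrates. With the block and the tag-sequence offset, counts were 13 and 11 genes, 1 (Adamts1, 1.48) and 0 members, and 0 in both lists. Among the genes named by rule, signs turned in that fit for Adamts5 (0.36), Mmp2 (0.19), Mmp14 (-0.33), Mmp11 (0.73), Adamts2 (-0.31), Adamts15 (-0.26), Adamtsl3 (0.31), Adamtsl2 (-0.60), Ctsd (-0.094), Bmp1 (-0.074), Fbln1 (-0.031), Reck (0.26), Hspg2 (-0.34), Col4a2 (-0.10) and Col3a1 (0.49).

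The tag-sequence offset alone gave 11 and 7 genes, and 0 members or list genes. Signs turned in 16 of 43 tested members; among the genes named by rule they turned for Adamts5 (0.38), Mmp2 (0.18), Mmp14 (-0.32), Mmp11 (0.77), Adamts2 (-0.30), Adamts15 (-0.26), Adamtsl3 (0.28), Adamtsl2 (-0.56), Ctsd (-0.096), Bmp1 (-0.087), Fbln1 (-0.032), Reck (0.26), Hspg2 (-0.34), Col4a2 (-0.10) and Col3a1 (0.46). Leaving out 1 library under it gave 36 and 17 genes (without forelimb 1), 3 and 1 (forelimb 2), 121 and 102 (hindlimb 1) and 12 and 5 (hindlimb 2), 0 to 2 and 0 members (Adamts1 and Adamts13 without hindlimb replicate 1), 0 and 0 to 1 proteolysis genes and 0 and 0 to 1 substrates. The GC offset gave 394 and 431 genes, 1 and 2 members, 1 and 0 proteolysis genes and 0 and 3 substrates. Under it signs turned for Mmp14 (-0.42), Mmp11 (0.075), Timp3 (0.36), Adamts2 (-0.091), Adamts15 (-0.56), Adamtsl2 (-0.44), Adam10 (0.035) and Fbln1 (-0.020).

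Members called higher in hindlimb numbered 1 without the low-count filter (Adamts10), 2 with tags of 1 M21 gene, 2 with the most abundant tag, 1 at the last site and 2 with unassigned tags added, in fits that called 11.2%, 17.7%, 23.5%, 23.3% and 17.3% of all features in either direction. The most abundant tag gave 7 and 7 proteolysis genes and 5 substrates higher in hindlimb, and the last site 5 and 2 substrates. Signs turned for Mmp16 with tags of 1 M21 gene (-0.044); for Mmp16 (-0.24), Timp1 (-0.0087), Adamts2 (-0.74) and Adam10 (0.015) at the last site; for Adamts2 (-0.85) and Adam10 (0.087) with the most abundant tag; and for Adamts12 (0.059) with unassigned tags. Leaving out 1 library in turn gave both signs for Timp1 (-0.086 to 0.72), Adamts13 (-0.27 to 0.63), Adamtsl2 (-0.28 to 1.24) and Adamtsl5 (-2.20 to 1.76). Of the other values of named genes 494 kept direction and side of the threshold, 58 fell short of it and 16 newly passed. The causes were not tested. Alternatives without a row for a gene had too few counts in the tags they admit, which can come from annotation as well as depth. A last-site tag of Adamts5, with 28 counts, had no gene in the deposited table. The only tag of Adamts13, with 1295 counts, matches 4 M21 genes.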
